A study of Mus musculus with 64 samples.

Results

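Hearts of transgenic (TG) female mice were compared between 6 mice that completed high-intensity interval training (HIIT) and 8 that stayed sedentary. These 14 libraries were taken by their sample titles and belong to a series of 64 bulk RNA-seq libraries, which crosses genotype, training and sex in 8 groups. All mice were of the C57BL/6J strain. TG mice, in both groups compared, carried cTnT-delta160E, a deletion variant of cardiac troponin T that serves as a mouse model of hypertrophic cardiomyopathy, and non-transgenic (nTG) mice did not carry it. Trained mice ran on a treadmill on 3 days per week for 6 weeks. A session lasted 31 minutes and held 4 intervals at 85% and 4 at 50% of the mean speed that the group had reached in a graded test. Sedentary mice did not run. The ages, the promoter that drives the transgene, the time of day and the delay between the last session and tissue collection are not given in the sources used here. The labels call the samples biological replicates, and the series text states 7 to 9 per group, while the titles give 6 to 10.

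Cardiac troponin T, the product of Tnnt2, holds the troponin complex on the thin filament and takes part in switching contraction on when calcium rises. Variants of thin-filament proteins are known for thickened walls, fibrosis, altered calcium handling and re-expression of fetal genes. The healthy heart burns mainly fatty acids, and regular exercise is known to shift its fuel genes, its growth signalling and its mitochondria.

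All but 1 of the 64 columns of the deposited gene table stood under names of other libraries, and each was assigned to the library whose lncRNA column it matched best. The exception, trained replicate 6 of the TG females, matched the column of its own name. For the 14 TG female libraries the correlation, across transcripts, was 0.690 to 0.839 with the matched gene column and at most 0.404 with the next best. By column name, 9 of these 14 gene columns contradicted the labelled sex and 6 the labelled genotype, against 0 and 0 after matching. In the matched columns Xist, the RNA that silences an X chromosome in females, lay between 295 and 412 CPM (counts-per-million values, with library sizes scaled by the TMM method), and the sum of Uty, Kdm5d, Eif2s3y and Ddx3y, all on the Y chromosome, was at most 1.92 CPM. Totals were 34.6 to 51.5 M gene counts in the sedentary and 43.4 to 59.8 M in the trained libraries.

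The transgene's product is counted with Tnnt2, which checks the genotype label. Its lowest, median and highest values were 7810, 9759 and 10475 CPM in sedentary and 8004, 9069 and 11721 CPM in trained hearts. The means, 9416 ± 980 CPM (SD, n = 8) and 9306 ± 1305 CPM (SD, n = 6), differed by less than the spread between mice (two-sided exact permutation test, adjusted p = 0.861). The 33 nTG libraries lay at 2561 to 3589 CPM, below all 31 TG libraries. Mitochondrially encoded genes took 16.3% ± 0.972 (SD, n = 8) of sedentary and 15.8% ± 1.06 (SD, n = 6) of trained counts (adjusted p = 0.768, same exact permutation test). Total counts (adjusted p = 0.668), the share of the 10 most abundant genes (0.768) and the lncRNA counts relative to gene counts (0.861) did not pass that exact test either. Cardiomyocyte markers (Myh6, Actc1, Tnni3, Myl2 and Ryr2) summed to 51037 to 58441 CPM in these libraries, and no lung or thymus marker (3 and 2 genes) was among the genes in the table.

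The question of the comparison is what 6 weeks of interval training changed in hearts that carry the mutant troponin. No gene passed: 0 of 16913 genes (0.0%) had an adjusted p under 0.05 in edgeR's quasi-likelihood test. At an unadjusted p under 0.05 there were 606 genes (3.58%), 321 of them higher (1.9%) and 285 lower (1.69%) in trained hearts; 5.0% of all genes would be 846. The smallest adjusted p was 0.361. DESeq2 also passed 0 genes (621 at an unadjusted p under 0.05), limma with sample quality weights passed 3 (Cx3cr1 and Plpp1 lower, the antisense gene Gm20631 higher), and edgeR fitted on these 14 libraries alone passed 1, Cx3cr1. Leaving out any 1 of the 14 libraries gave 0.

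For most well-covered genes the 95% interval, taken gene by gene without adjustment for 16913 tests, lay inside a 2-fold change. Of 13463 genes with a mean of at least 50 counts, 13315 (98.9%) had a 95% interval of the log2 fold change inside −1 to 1, and 12122 (90.0%) had one inside −0.5 to 0.5. The median half-width was 0.155 for these genes and 0.568 for the 3450 genes with fewer counts, of which 2716 (78.7%) had an interval inside −1 to 1. Estimated differences were small as well: 9 of the 13463 better covered genes lay beyond 1 in either direction. Genes that passed in TG males differed there by medians of 0.21 (higher) and −0.24 (lower). That 0 genes passed here does not by itself exclude differences of that size.

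The genes with the smallest p among those lower in trained hearts came from several functions. Cx3cr1 (ENSMUSG00000052336; chr9:119901616-120069879, GRCm38), the fractalkine receptor of monocytes and resident macrophages, was at 7.25, 8.31, 7.06, 7.98, 8.65, 7.53, 6.39 and 9.41 CPM in sedentary replicates 1 to 8 and at 3.79, 4.88, 3.48, 5.06, 2.95 and 4.84 CPM in trained replicates 1 to 6. Every trained heart was below every sedentary heart. This held for 3 of 16913 genes (0.0177%), no larger a share than random group labels would give, as set out below. The log2 fold change was −0.91 ± 0.21 (SE, 95% interval −1.33 to −0.48, adjusted p = 0.361), a level of 0.533 of the sedentary. The summed CPM of 4 other macrophage markers (Cd68, Adgre1, Csf1r and C1qa) was 101 to 162 in sedentary and 121 to 179 in trained hearts, with medians of 137 and 131 and the highest value in trained replicate 3. In bulk tissue, fewer cells of a type and less RNA per cell cannot be told apart. In training comparisons that share no library with this one, Cx3cr1 differed by −0.76 ± 0.18 in nTG females (adjusted p = 0.0592) and by −0.47 ± 0.19 in TG males (adjusted p = 0.0708), both short of the threshold.

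Rnf144a (chr12:26300964-26415254), an E3 ubiquitin ligase, ranged from 19 through 22.6 to 25.1 CPM in sedentary and from 13.9 through 17 to 19.9 CPM in trained hearts (lowest, median, highest), with trained replicate 2 level with the lower sedentary hearts and the other 5 below all of them. It had the smallest p of all genes, at a log2 fold change of −0.37 ± 0.08 (adjusted p = 0.361). Rrad (chr8:104628070-104631327), a small GTPase that restrains L-type calcium channels, was at 235 to 319 CPM in sedentary and at 145, 164, 188, 236, 164 and 212 CPM in trained hearts 1 to 6. Trained replicate 4 was the single overlap, and the log2 fold change was −0.54 ± 0.13 (adjusted p = 0.422). Gadd45b, a stress-inducible growth arrest gene, spread from 2.51 to 6.72 CPM in sedentary and from 1.7 to 3.57 CPM in trained hearts, a difference of −0.88 ± 0.21 (adjusted p = 0.361). Smaller differences were those of Plpp1, a lipid phosphate phosphatase (−0.21 ± 0.05, adjusted p = 0.361), and Anxa5, the phosphatidylserine-binding annexin A5 (−0.19 ± 0.05, adjusted p = 0.629). Zfp341, a zinc finger transcription factor, and Hdgfl3, a relative of hepatoma-derived growth factor, differed by −0.32 ± 0.09 and −0.20 ± 0.06 (adjusted p = 0.478 and 0.638).

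**Figure D1:**
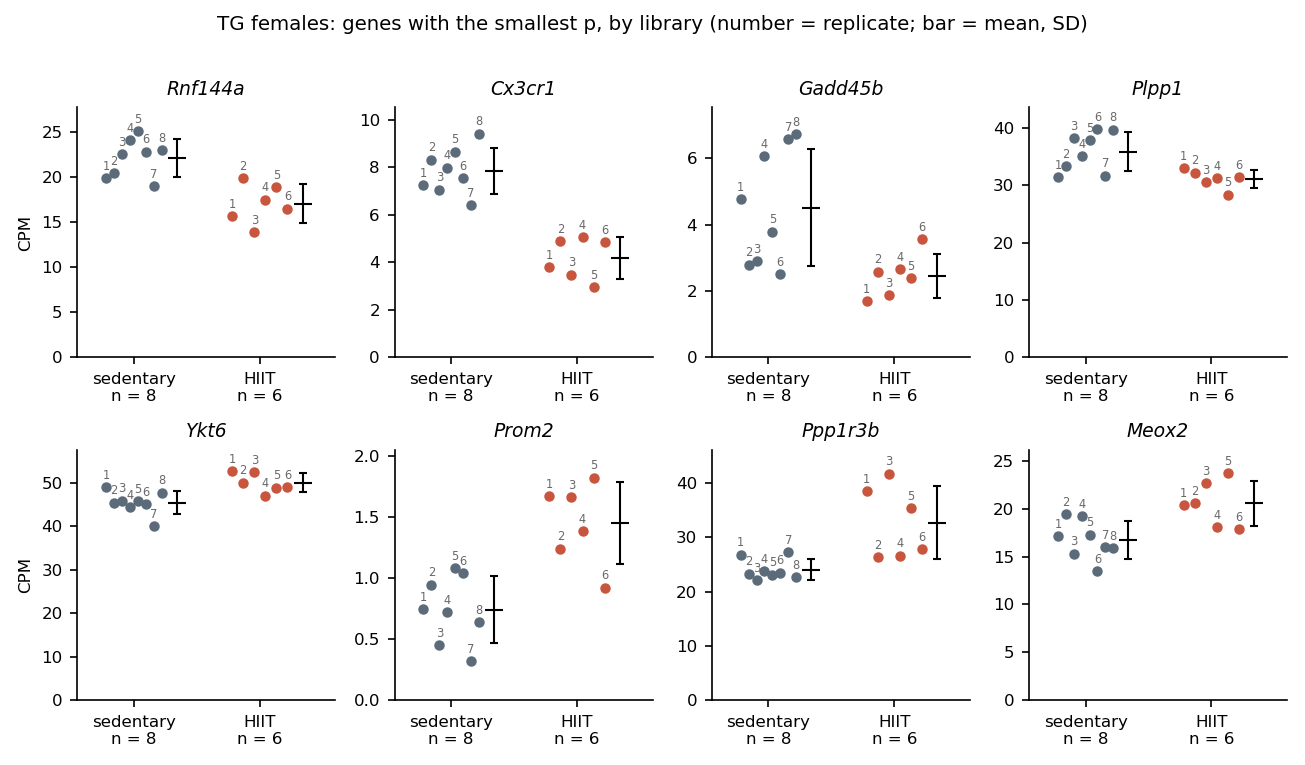
CPM (y axis, from 0) in each of the 14 TG female libraries for the 4 genes with the smallest p among those lower in trained hearts (top) and among those higher (bottom). Each point is 1 library with its replicate number, and bars give the mean and SD of 8 sedentary and 6 HIIT libraries; the groups are apart for Cx3cr1 (6.39 to 9.41 against 2.95 to 5.06 CPM) and overlap for the other 7 genes.

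Among genes higher in trained hearts, the smallest p belonged to Ykt6 (chr11:5955693-5967780), a SNARE protein of vesicle fusion. Its median was 45.5 CPM in sedentary and 49.4 CPM in trained hearts, with overlap at 47 to 48.9 CPM, 1.1-fold higher with a log2 fold change of 0.14 ± 0.04 (adjusted p = 0.452). In nTG females, in other libraries, Ykt6 was higher after training by 0.14 ± 0.03 (adjusted p = 0.0429), a call that was lost when only the 2 nTG groups were fitted, where 0 genes passed. Ppp1r3b (chr8:35375739-35388139), a subunit that targets protein phosphatase 1 to glycogen, was at 22.1 to 27.2 CPM in sedentary hearts and at 38.5, 26.3, 41.7, 26.6, 35.4 and 27.8 CPM in trained hearts 1 to 6. Trained replicates 1, 3 and 5 stood well above the sedentary range and the other 3 at its upper edge (0.44 ± 0.12, adjusted p = 0.478). G0s2, an inhibitor of the fat-cell triglyceride lipase, divided the trained hearts in the same way, with 40.2, 39.5 and 44.8 CPM in replicates 1, 3 and 5 and 26.8, 30.3 and 21.8 CPM in replicates 2, 4 and 6, against 20.9 to 26.6 CPM in sedentary hearts (0.44 ± 0.12, adjusted p = 0.572). Trained replicates 1, 3 and 5 were also the highest trained hearts on the lists of clock and immediate early genes described below.

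Meox2, a homeobox factor of vessels and muscle, was at 13.5 to 19.4 CPM in sedentary and at 17.9 to 23.7 CPM in trained hearts (0.30 ± 0.08, adjusted p = 0.478). In TG males it went the other way and passed (−0.22 ± 0.07, adjusted p = 0.0267), while the term for a difference between the sexes was 0.52 (adjusted p = 0.0616). Wee1, a kinase that holds back entry into mitosis, had a median of 10.2 CPM in sedentary and 13.9 CPM in trained hearts, with trained replicate 3 highest at 23.9 CPM (0.58 ± 0.16, adjusted p = 0.478). Ier5, an immediate early response gene, was at 35.3 to 49.6 CPM in sedentary hearts and at 30.3 to 96.0 CPM in trained hearts. Its log2 fold change was 0.43 ± 0.13 (adjusted p = 0.835) and 0.19 without trained replicate 3. Prom2, a membrane protrusion protein, and Cngb3, a cyclic nucleotide gated channel subunit, were near 1 CPM and differed by 0.97 ± 0.26 and 0.94 ± 0.28 (adjusted p = 0.478 and 0.828). Mov10l1, an RNA helicase of the piRNA pathway, and Ndnf, a secreted neurotrophic factor, differed by 0.31 ± 0.10 and 0.35 ± 0.11 (adjusted p = 0.835 for both), and Mov10l1 was higher in nTG females (0.41, adjusted p = 0.0293), a call likewise lost in the fit of the nTG groups alone.

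The groups did not overlap for 8 of 16913 genes (0.0473%). Of all splits of 14 libraries into 6 and 8, a share of 0.000333 separates a gene completely in a given direction. The observed shares, 0.0177% lower and 0.0296% higher, do not exceed that chance level, so separation alone does not set these genes apart. The 8 genes were singled out after their values were seen. The 3 lower in every trained heart were Cx3cr1, the sialomucin gene Podxl2 (10.8 to 14.5 CPM against 8.98 to 10.7 CPM) and the orphan nuclear receptor gene Nr2c2 (42.2 to 47.9 CPM against 37.6 to 42.2 CPM, apart in the unrounded values). The 5 higher in every trained heart (0.0296%) were Nlrc5, Gbp4, Uba7, 2410131K14Rik and Gm9725. Nlrc5 activates class I antigen presentation genes, Gbp4 encodes an interferon-inducible guanylate-binding protein, and Uba7 encodes the enzyme that charges the interferon-induced modifier ISG15. Gbp4 was at 7.46 to 10.3 CPM in sedentary and 11.7 to 14.7 CPM in trained hearts, 1.37-fold higher (0.46 ± 0.18). Nlrc5 was at 5.59 to 11.2 CPM and 11.2 to 17.6 CPM, again apart in the unrounded values (0.54 ± 0.20), and Uba7 was at 18.1 to 23.5 CPM and 24.7 to 26 CPM (0.24 ± 0.11). None of the 8 passed the threshold, and beyond Cx3cr1 the adjusted p was 0.835 to 1.0. Gm9725, an antisense transcript with 14.1 counts on average, overlaps the start of Usp38 on the other strand, and the strand setting of the authors' counting is not given in the sources used here.

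Pdk4, Ucp3 and Angptl4, genes of fuel choice, had large estimates that did not pass. They form no list of their own, and the sedentary hearts split on all 3. Pdk4 (chr6:5483351-5496309), the mitochondrial kinase that inhibits the pyruvate dehydrogenase complex and so spares glucose when fat is burned, was at 179, 143, 267, 374, 441, 333, 452 and 373 CPM in sedentary replicates 1 to 8 and at 144, 194, 161, 157, 108 and 128 CPM in trained replicates 1 to 6. Sedentary replicates 1 and 2 lay within the trained range and the rest above it. The log2 fold change was −1.10 ± 0.29 (adjusted p = 0.478). Ucp3, a mitochondrial carrier of the inner membrane, had the same split, with 25.1 to 27.2 CPM in sedentary replicates 1 and 2, 49.7 to 70.4 CPM in replicates 3 to 8 and a median of 23.7 CPM, with 38.9 CPM at most, in trained hearts (−0.93 ± 0.27, adjusted p = 0.835). Angptl4, a secreted inhibitor of lipoprotein lipase, was at 1.93 to 4.29 CPM, 8.39 to 17.8 CPM and 1.82 to 5.44 CPM in sedentary replicates 1 and 2, sedentary replicates 3 to 8 and trained hearts (−1.37 ± 0.41, adjusted p = 0.835). All 3 are known targets of PPAR transcription factors. Blood markers were also highest in sedentary replicates 1 and 2, at summed 694 and 1174 CPM, against 316 to 486 CPM in replicates 3 to 8. A link to the split was not tested.

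Lipe, hormone-sensitive lipase, which releases fatty acids from stored fat, was at 46.5 to 67.0 CPM in sedentary and 40.6 to 53.4 CPM in trained hearts (−0.32 ± 0.09, adjusted p = 0.478). The summed CPM of the adipocyte markers Cfd and Plin1 was 2.09 to 21.6 in sedentary and 2.58 to 5.93 in trained hearts, highest in sedentary replicates 3 and 8. Their part in the Lipe difference was not tested. Over the list of 31 fatty acid uptake and oxidation genes, 0 passed, 25 were lower and 6 higher in trained hearts, and the median log2 fold change was −0.04 (−0.06 to −0.01 when single libraries were left out, the latter without sedentary replicate 7 or trained replicate 3), against −0.00 over all genes, of which 47.8% were higher. Genes of uptake and of the oxidation steps lay near 0: Cd36, the fatty acid importer, differed by −0.07 ± 0.07, Cpt1b, the gate of mitochondrial import, by −0.04 ± 0.05, and Acadm and Hadha, enzymes of the oxidation spiral, by 0.05 ± 0.07 and −0.04 ± 0.07. Fabp3, the cytosolic fatty acid carrier, was at 1423 to 1797 CPM in sedentary and 1337 to 1578 CPM in trained hearts (−0.15 ± 0.06).

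Clock genes differed in both directions by mean estimate, the groups overlapped, and 0 of 18 passed. Per2, a repressor of the clock's core loop, was at 5.75 to 16.1 CPM (median 11) in sedentary and at 12.4 to 33.6 CPM (median 18.6) in trained hearts, 1.81-fold higher on average (0.85 ± 0.35). Per3, a related repressor, was at 11.1 to 21.2 CPM against 17.9 to 30.4 CPM (0.63 ± 0.28), Tef, a PAR bZIP output factor, at 80.9 to 117 CPM against 101 to 181 CPM (0.43 ± 0.18), and Hlf, its relative, was at 15.4 to 24.3 CPM against 18.6 to 35.8 CPM. The activators Arntl (BMAL1), Npas2 and Clock were on the other side, at −0.60 ± 0.36, −0.47 ± 0.27 and −0.20 ± 0.08. Of 18 clock genes 12 were higher in trained hearts, 0 passed, 5 higher and 1 lower had an unadjusted p under 0.05 (against 1.9% and 1.69% of all genes), and the median was 0.19 (0.11 to 0.23 when single libraries were left out). It was 0.28 in nTG females and 0.01 in TG males, each from other libraries and with 0 passing. Trained replicate 3 had the highest Per2 and Tef, and without it Per2 differed by 0.63 and Tef by 0.32. Relative to the mean of the 14 libraries on the log2 scale, the list stood at 0.10, 0.38 and 0.26 in trained replicates 1, 3 and 5. Trained replicates 2, 4 and 6, at 0.02, −0.10 and −0.03, lay within the sedentary range of −0.29 to 0.08.

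**Figure D2:**
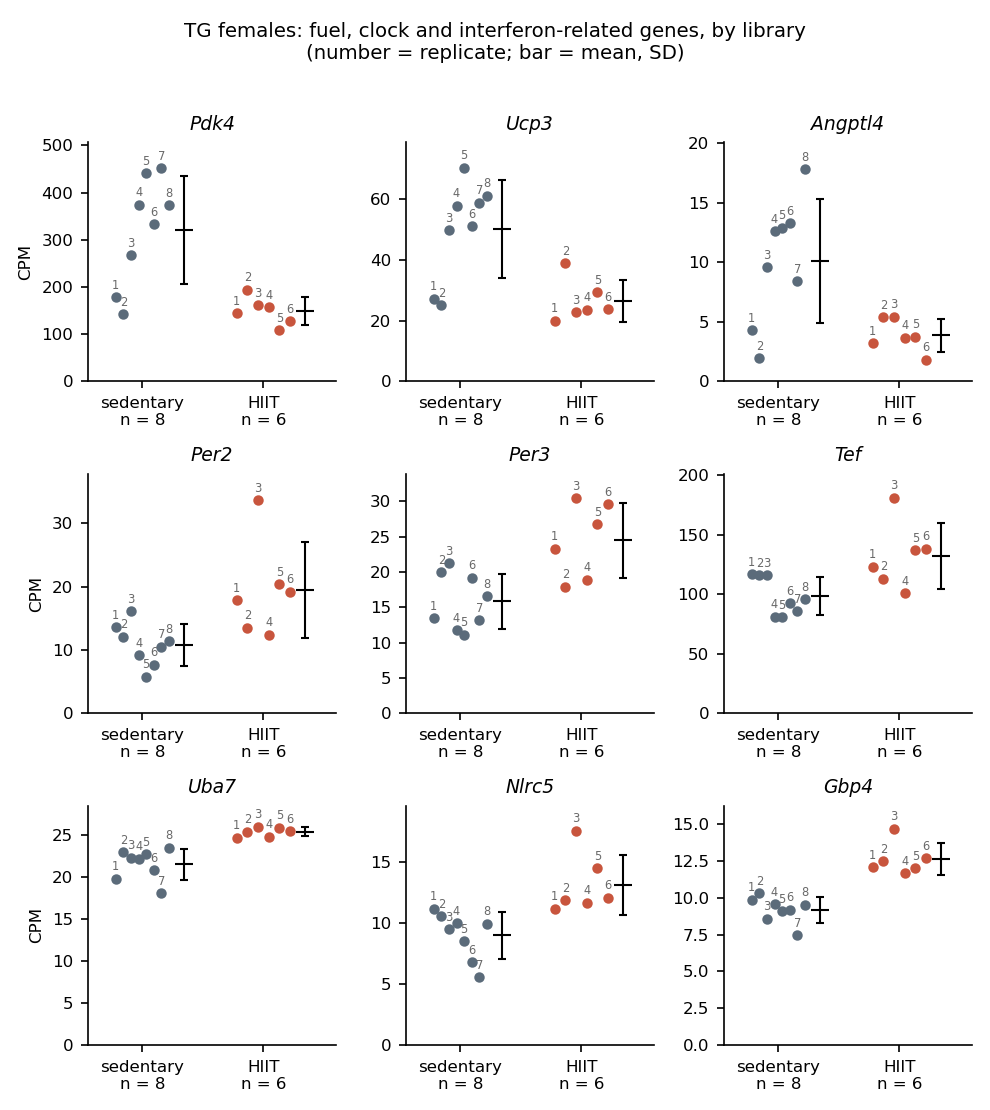
CPM (y axis, from 0) in each TG female library for genes of fuel choice (Pdk4, Ucp3, Angptl4), of the clock (Per2, Per3, Tef) and related to interferon (Uba7, Nlrc5, Gbp4); points carry the replicate number, and bars are the mean and SD (n = 8 and 6). Sedentary replicates 1 and 2 lie among the trained hearts in the top row, and trained replicate 3 is highest in every panel of the lower rows. The groups are apart in the bottom row, whose genes were chosen after this was seen. On the list of 24 interferon and antigen presentation genes, the groups are apart for 0.

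Interferon and antigen presentation genes were mostly higher in trained hearts, by small amounts. Of 24 genes on the list 21 were higher, 0 passed, and the median was 0.14 (0.10 to 0.18 when single libraries were left out). The groups overlapped for all 24, and Nlrc5, Gbp4 and Uba7 are not among them. B2m, the light chain of class I molecules, was at 119 to 187 CPM in sedentary and 155 to 238 CPM in trained hearts (0.23 ± 0.14). The same list had a median of −0.37 in nTG females and of −0.16 in TG males, with 0 genes passing in either. The difference between the genotypes in the training effect passed for 0 of the 24 genes, and 6 had an unadjusted p under 0.05, against 1093 of all genes (6.46%). The 4 lymphocyte markers summed to 0.864 to 2.52 CPM in sedentary and to 1.17 to 1.76 CPM in trained hearts other than replicate 3, which had 7.34 CPM. Without that library the interferon median was 0.12. Sedentary replicate 7 was lowest on this list, by 0.49 below the mean of the 14 libraries on the log2 scale.

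Immediate early genes varied widely among the hearts of both groups. Of 20 immediate early genes 14 were higher in trained hearts and 0 passed, with a median of 0.13. It was −0.01 without trained replicate 3, in which the list stood 0.65 above the mean of the 14 libraries, and 0.29 without sedentary replicate 6, which stood 0.51 above it. Trained replicates 1 and 5 stood at 0.23 and 0.22, replicates 2 and 4 at −0.06 and −0.13, and replicate 6 at −0.58. Jun, a subunit of the AP-1 factor, was at 94.6 to 134 CPM in sedentary and at 76.4 to 178 CPM in trained hearts (0.26 ± 0.13). Hspa1b, an inducible HSP70 chaperone gene with a near-identical neighbour, Hspa1a, between which reads can be split, was at 5.99 to 8.70 CPM in sedentary hearts and at 15.7, 7.55, 25.8, 6.83, 9.85 and 6.29 CPM in trained hearts 1 to 6 (0.71 ± 0.24, and 0.33 without replicate 3). Of 20 heat shock and chaperone genes 14 were higher, 0 passed and the median was 0.01. Irs2, which passes insulin and IGF-1 signals on, was at 25.3 to 50.6 CPM and 27.4 to 85.3 CPM (0.43 ± 0.17, and 0.15 without replicate 3).

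**Figure D3:**
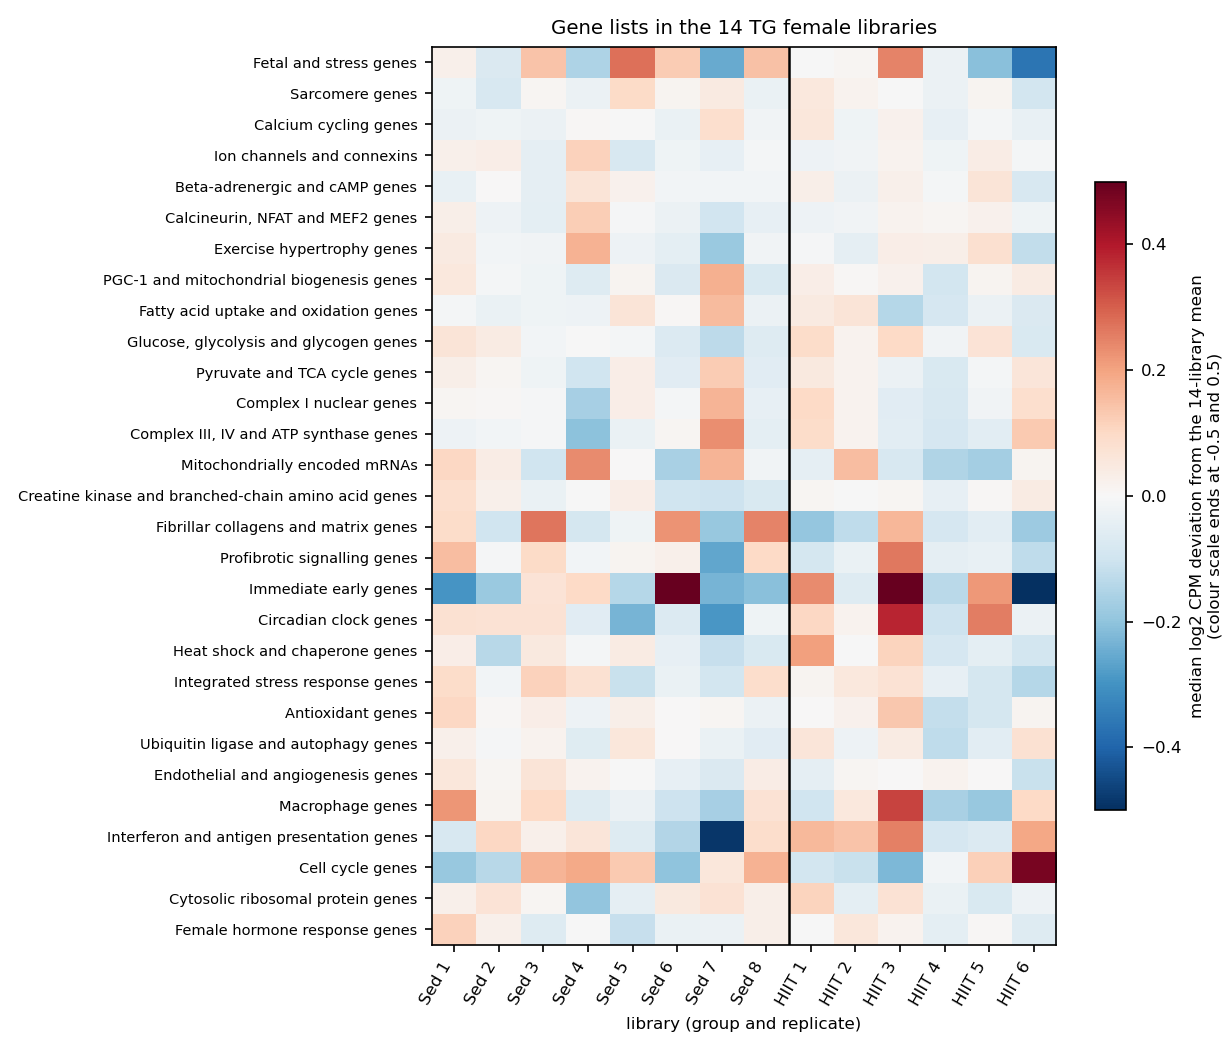
For 29 gene lists (rows) and the 14 TG female libraries (columns, 8 sedentary then 6 HIIT), the colour gives the median over the list's genes of log2 CPM minus the gene's mean over the 14 libraries, from −0.5 (blue) to 0.5 (red), where the scale ends. Immediate early genes reach 0.65 in HIIT replicate 3 and −0.58 in HIIT replicate 6, and no list separates the 2 groups of columns.

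No fetal or stress gene, of the kind that hypertrophic cardiomyopathy models re-express, passed. Nppa, atrial natriuretic peptide, was at 33 to 204 CPM in sedentary and 86.1 to 198 CPM in trained hearts (−0.06 ± 0.47). Acta1, skeletal alpha-actin, was at 468, 200, 717, 280, 435, 299, 231 and 388 CPM in sedentary and at 201, 424, 279, 259, 261 and 170 CPM in trained hearts, with wide overlap (−0.51 ± 0.37). Against nTG females, Acta1 was higher by 1.11 in sedentary TG hearts (adjusted p = 0.0477) and by 0.87 in trained TG hearts (adjusted p = 0.0775), values that share their TG libraries with the training comparison. Of 13 measured genes 2 were higher in trained hearts, 0 passed, and the median was −0.06, and −0.18 without trained replicate 3. Myl7 and Myl4, light chains of atrial muscle, ranged from 1.90 to 36.4 CPM and from 5.87 to 73.2 CPM in sedentary hearts and from 0.0817 to 9.75 CPM and from 1.63 to 31.0 CPM in trained hearts. The atrial marker sum was 50.8 to 317 CPM and 87.8 to 241 CPM, and its part in this list was not tested.

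No contractile or calcium cycling gene passed. Of 18 sarcomere genes 8 were higher and 10 lower, 0 passed, and all differences lay between −0.07 and 0.15. Myh6, the main myosin heavy chain of the adult mouse heart, was at 35080 to 41191 CPM in sedentary and 35827 to 41661 CPM in trained hearts (0.01 ± 0.06), and Ttn, titin, differed by −0.03 ± 0.06. Atp2a2, the calcium pump SERCA2, differed by −0.07 ± 0.06 and Ryr2, the calcium release channel, by −0.04 ± 0.06, and the 17 calcium cycling genes lay between −0.70 and 0.06 (median −0.01, 0 passing). The lower end was Sln, sarcolipin, an inhibitor of SERCA2, at −0.70 ± 1.03 and at most 5.39 CPM in any library. In TG males 7 of these 17 passed, all higher in trained hearts, against 10.3% of all genes higher. Ion channels and connexins (18 genes, median −0.00) and calcineurin, NFAT and MEF2 genes (16 measured, median −0.01) likewise had 0 passing. Among 17 beta-adrenergic and cAMP genes Grk5, a receptor kinase, and Pde4b, a cAMP phosphodiesterase, had the smallest p, at −0.20 ± 0.09 and 0.18 ± 0.09, with 0 passing and a median of −0.01. The 22 genes of exercise hypertrophy (IGF-1, PI3K and AKT signalling and related factors) had a median of −0.01, with 11 higher and 0 passing. Akt1 differed by −0.03 ± 0.07.

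Matrix genes had lower mean estimates in trained hearts in nearly all members, and none passed. Of 24 fibrillar collagen and matrix genes 23 were lower, 0 passed, and the median was −0.14 (−0.19 to −0.10 when single libraries were left out). Col1a1, a chain of type I collagen, was at 172 to 284 CPM in sedentary and 184 to 253 CPM in trained hearts (−0.17 ± 0.17). Col3a1 was at 264 to 390 CPM and 248 to 309 CPM (−0.25 ± 0.17), and Eln, elastin, at 37.6 to 63.2 CPM and 28.8 to 49 CPM (−0.33 ± 0.16). Postn, a marker of activated fibroblasts, was the member that was not lower (0.02 ± 0.23). The median was −0.29 in TG males, where 9 of the 24 passed, all lower, against 7.6% of all genes lower, and −0.26 in nTG females with 0 passing. The difference between the sexes passed for 0 of the 24, with 0 at an unadjusted p under 0.05, against 18.1% of all genes. Fibroblast markers summed to 687 to 914 CPM in sedentary and 703 to 910 CPM in trained hearts. Of 19 measured profibrotic signalling genes 14 were lower and 0 passed (median −0.04, and −0.11 without trained replicate 3), with Smad7, an inhibitor of TGF-beta signalling, at 0.23 ± 0.11.

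The other lists of energy metabolism had medians of −0.07 to 0.04. The 36 nuclear complex I genes had a median of 0.01, the 35 genes of complexes III and IV and of ATP synthase 0.01, the 27 pyruvate and TCA cycle genes 0.00, and the 19 creatine kinase and branched-chain amino acid genes 0.01. None of these passed, and Atp5g1, a subunit of the ATP synthase rotor, had the smallest p among the ATP synthase genes at 0.11 ± 0.05. Of 13 mitochondrially encoded mRNAs 12 were lower and 0 passed (median −0.07, and −0.12 without trained replicate 2 or −0.05 without sedentary replicate 4), with mt-Co1 at −0.07 ± 0.07. Of 24 genes of glycolysis and glycogen 23 were higher and 0 passed, with a median of 0.04 (0.02 without trained replicate 1) and Eno3, muscle enolase, at 0.11 ± 0.06. The 19 genes of PGC-1 and mitochondrial biogenesis had a median of −0.01 with 0 passing. Ppargc1b, the coactivator PGC-1 beta, was at 59.6 to 91.2 CPM and 50.3 to 71.4 CPM (−0.20 ± 0.09), and in TG males it was lower by 0.29 and passed (−0.29, adjusted p = 0.00804).

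The other lists gave 0 passing genes as well. Medians were 0.06 for 18 macrophage genes, −0.03 for 20 endothelial and angiogenesis genes, −0.05 for 19 measured cell cycle genes, −0.01 for 18 measured genes of the integrated stress response, −0.02 for 23 antioxidant genes, −0.02 for 20 ubiquitin ligase and autophagy genes, 0.00 for 35 cytosolic ribosomal protein genes and 0.01 for 10 measured genes of the response to female hormones. Without trained replicate 3 the macrophage and cell cycle medians were both −0.01. Every list with a median between −0.02 and 0.01 took medians on both sides of 0 when single libraries were left out, all between −0.07 and 0.06. Trim63, the muscle ubiquitin ligase MuRF1, was at 90.1 to 111 CPM in sedentary and 81.8 to 104 CPM in trained hearts (−0.16 ± 0.06), and Nfe2l2, the master factor of antioxidant genes, differed by 0.15 ± 0.07. Over all 29 lists 0 of 613 measured genes passed and 31 had an unadjusted p under 0.05, against 3.58% of all genes. Of the cell type markers, blood genes summed to 316 to 694 CPM in sedentary hearts other than replicate 2, which had 1174 CPM, and to 344 to 610 CPM in trained hearts. Endothelial markers summed to 801 to 924 CPM and 774 to 903 CPM.

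**Figure D4:**
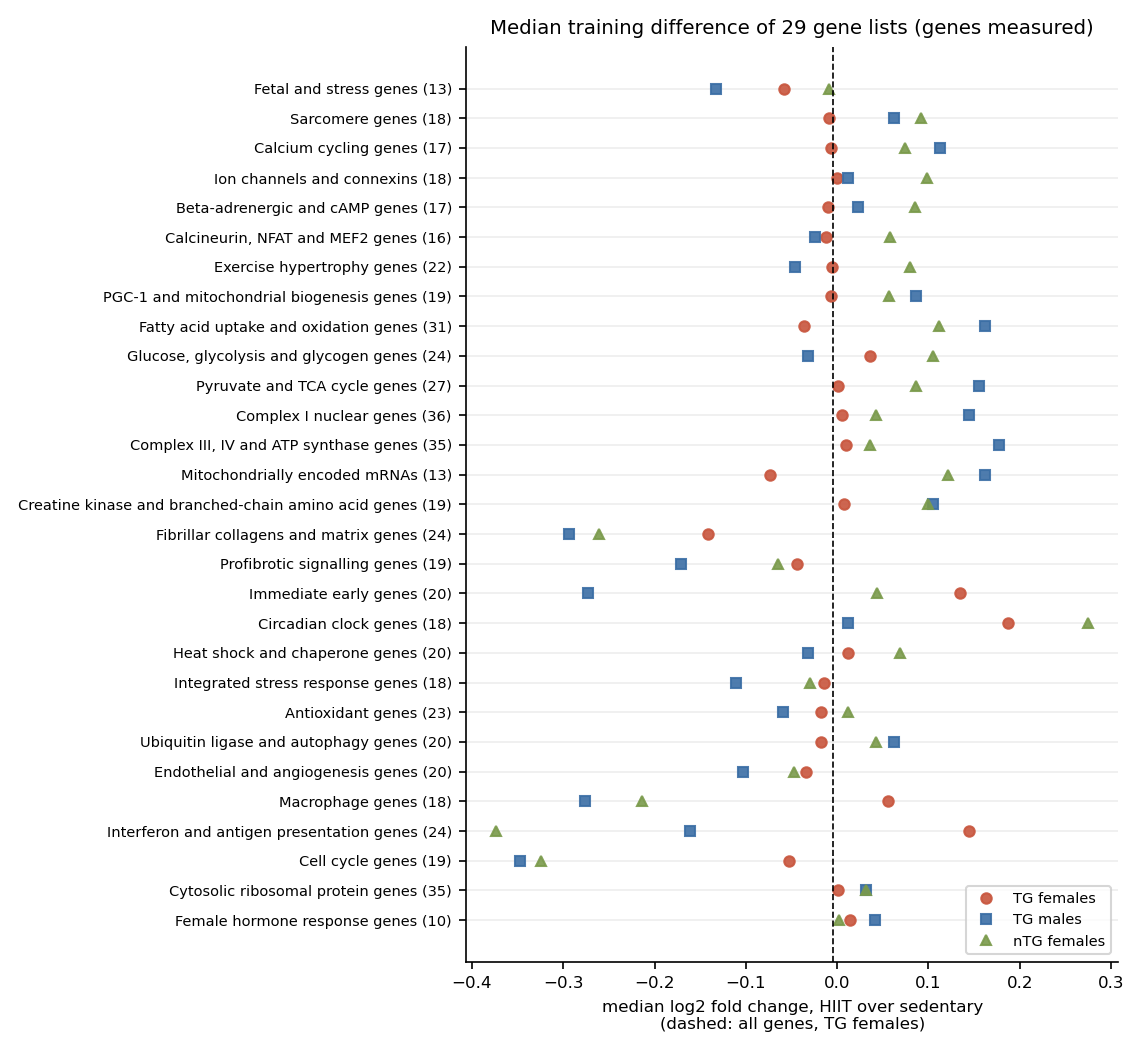
Median log2 fold change, HIIT over sedentary (x axis), of 29 gene lists with the number of genes measured in parentheses; circles are TG females, squares TG males and triangles nTG females, and the dashed line is the median of all genes in TG females (−0.00). In TG females the medians run from −0.14 (matrix genes) to 0.19 (clock genes), and fatty acid, TCA cycle and respiratory chain genes lie near 0 where those of TG males lie at 0.14 to 0.18.

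Another comparison sets TG females beside TG males. In TG males, 3036 of 16913 genes (18%) passed, 1750 higher (10.3%) and 1286 lower (7.6%) in trained hearts. In females the 1750 genes had a median log2 fold change of −0.01, against 0.21 in males. Of them 777 (44.4%) were higher after training, against 47.8% of all genes. The 1286 genes had a median of −0.02, against −0.24 in males, and 791 (61.5%) were lower, against 8826 of all 16913 genes. The male values chose these genes and are given as a description, while the female values took no part in the choice. The median half-width of the female interval was 0.131 for the first set and 0.154 for the second.

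The difference between the sexes in the training effect passed for 0 of 16913 genes in edgeR (smallest adjusted p = 0.0616), while 3063 (18.1%) had an unadjusted p under 0.05. DESeq2 passed 223 genes and limma with sample quality weights 927. Leaving out trained female replicate 6 gave 904 and leaving out sedentary female replicate 4 gave 416, so that this count changes with the tool and with single libraries. Dnm1l, the GTPase of mitochondrial fission, was higher by 0.32 ± 0.06 in trained males (adjusted p = 0.000769) and was at 71.6 to 106 CPM in sedentary and 71.6 to 87.2 CPM in trained females (−0.06 ± 0.06; difference between sexes −0.38, adjusted p = 0.0616). Kcnj3, a channel subunit of the acetylcholine-gated potassium current, was higher by 0.46 ± 0.08 in males and 0.12 ± 0.08 in females. Hspg2, perlecan of the basement membrane, was lower by 0.31 in males (−0.31 ± 0.06, adjusted p = 0.0011) and differed by −0.06 ± 0.06 in females. Vasp, an actin regulator, and Gpsm3, a G protein regulator of blood cells, differed by −0.40 ± 0.08 and −0.66 ± 0.12 in males and by −0.02 ± 0.09 and 0.07 ± 0.14 in females. Among the other genes most clearly changed in males, Trappc2, Tmx4, Mpp6, Rabggtb, Rab4b, Slc50a1 and Thsd1, female values lay between −0.08 and 0.08.

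Of the 31 fatty acid genes 15 passed in TG males, all higher, by 0.15 to 0.31, against 10.3% of all genes higher, and these 15 lay between −0.07 and 0.05 in TG females. The median of the whole list was 0.16 in males and −0.04 in females, and 20 of the 31 genes had an unadjusted p under 0.05 for the difference between sexes (against 18.1% of all genes), with 0 passing. The mitochondrially encoded mt-Nd3, a complex I subunit, was higher by 0.68 ± 0.15 in males (adjusted p = 0.00198) and differed by −0.18 ± 0.16 in females. Blood genes fell in trained males, with 5 of 5 passing, against 7.6% of all genes lower, and a median of −1.45. In females none passed, and the median of −0.23 includes sedentary replicate 2, whose blood markers summed to 1174 CPM against 316 to 694 CPM in the other sedentary hearts. Without that library, Hba-a1, an alpha globin, differed by 0.01 and Hbb-bs, a beta globin, by 0.13.

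**Figure D5:**
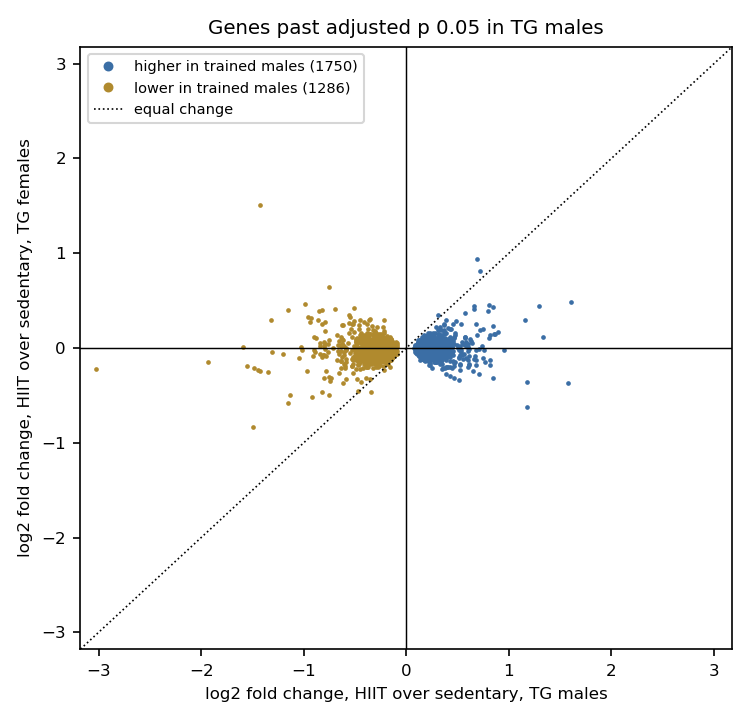
Each point is 1 of the 3036 genes that passed an adjusted p of 0.05 between trained and sedentary TG males, with its log2 fold change in males (x axis) and in females (y axis); the dotted line marks equal change. The 1750 genes higher in males and the 1286 lower in males both centre on 0 in females, at medians of −0.01 and −0.02.

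In nTG females, 25 of 16913 genes (0.148%) passed between trained and sedentary hearts, 21 higher (0.124%) and 4 lower (0.0237%). These calls depended on the fit: 0 genes passed when only the 2 groups compared were fitted, 3 with the replicate block and 131 with DESeq2. Of the 21, 17 (81.0%) were also higher in TG females (median 0.03, against 0.18 in nTG females), and of the 4, 0 were lower. Of all genes, 47.8% were higher in trained TG females. The difference between genotypes in the training effect passed for 0 genes in edgeR, in DESeq2 and in limma, with 1093 (6.46%), 1074 and 1400 at an unadjusted p under 0.05. Against nTG females of the same training state, 739 genes (4.37%) passed in sedentary TG females, 268 higher (1.58%) and 471 lower (2.78%), and the count was 367 in the fit of these groups alone and 1269 with limma and sample quality weights. In trained TG females 2503 (14.8%) passed, 908 higher (5.37%) and 1595 lower (9.43%). These comparisons share the TG libraries with the training comparison, so their values are set side by side only. Rrad was at 0.23 (adjusted p = 0.35) in sedentary and −0.52 (adjusted p = 0.00306) in trained hearts relative to nTG, and its difference between genotypes in the training effect was −0.75 (adjusted p = 0.575). The median of the fatty acid genes relative to nTG was −0.09 in sedentary hearts, with 3 of 31 lower and passing, and −0.24 in trained hearts, with 22.

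No long noncoding RNA passed. Of 1107 lncRNAs tested 0 passed (0.0%) and 49 (4.43%) had an unadjusted p under 0.05 in edgeR, and DESeq2 passed 0 as well (54). The lncRNAs with the smallest p were scarce. Gm43332 was at 0.0747 to 0.352 CPM in sedentary and 0.0434 to 0.131 CPM in trained hearts (−1.56 ± 0.44, adjusted p = 0.467), and Gm44616 and Gm42633 differed by −1.10 ± 0.32 and −0.76 ± 0.24. Among those higher, Gm37018 was at 0.538 to 1.06 CPM and 0.717 to 1.45 CPM (0.58 ± 0.22, adjusted p = 0.991), and 2810403D21Rik and Gm43204 differed by 0.70 ± 0.27 and 0.82 ± 0.32.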

How the data were processed

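Total RNA of mouse hearts was depleted of ribosomal RNA and sequenced, per the labels' protocols. The submitters' processing notes name cutadapt 2.3, FastQC 0.11.8, MultiQC 1.7, STAR 2.7.8a and RSEM 1.3.3 and the build GRCm38 (mm10), with no role for each. The authors deposited a table of raw counts for 16913 genes and a table of expected counts for 3787 lncRNAs, which were rounded to whole numbers here. Symbols and positions come from GENCODE M21 (GRCm38), which matched 16879 of the 16913 gene identifiers.

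The lncRNA columns were taken by name, and each received the gene column with the highest Pearson correlation of centred log2 CPM (pseudocount 0.5). This used 389 autosomal transcripts that the tables share and that averaged 20 or more counts. All 64 pairs were best in both directions. Counts were tested with edgeR 4.0.16 (TMM, estimateDisp, quasi-likelihood F test), one coefficient per group, all 64 libraries, and Benjamini-Hochberg adjustment over all genes. The filter on low counts kept every gene. lncRNAs used the library sizes of the gene table. Errors of fold changes are standard errors derived from the F statistic. CPM used TMM-scaled sizes and log2 CPM a prior count of 2. For whole-library values, exact permutation tests (two-sided) were adjusted over the 5 values. Fits and matching were tested on simulated data. The analysis also used limma 3.58.1, DESeq2 1.42.0 and R 4.3.3.

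The members, the 29 pathway lists, the 14 marker lists and the naming rule were chosen with earlier results of these data known. Named were the 10 genes with the smallest p in each direction (mean of at least 50 counts, no clone name or pseudogene), 6 in each direction from TG males, per list members with the highest CPM and the smallest p, the label genes and 3 lncRNAs in each direction. Genes named outside this rule were members of a list or are marked as chosen after their values were seen. The p-values and standard errors of the main gene fit rest on a spread between libraries estimated over all 8 groups, not over the 14 libraries alone. The median SD of log2 CPM was largest in sedentary TG females, at 0.161. It was 0.135 in trained TG females and 0.128 to 0.143 in the other groups. Some single genes that the rule names are not reported here.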

Additional observations from a re-analysis of the deposited data

Results flagged for a closer look

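In groups of 8 sedentary and 6 trained TG females, 80 sets of values were examined for a library far from the others of its group, of which chance sets apart about 1 in 20, and 6 were found. Among sedentary hearts, replicate 7 had 29.5% of its counts in the 10 most abundant genes (25.9% to 27.5% in the others), and replicate 4 had 8147 lncRNA counts per M gene counts (4439 to 6169). Sedentary replicate 2 had the highest summed CPM of blood markers, 1174 (316 to 694), and of smooth muscle and pericyte markers, 379 (249 to 310). Sedentary replicate 5 had the lowest G0s2, 20.9 CPM (24.4 to 26.6). Trained replicate 3 had 7.34 CPM of lymphocyte markers (1.17 to 1.76); without it Ms4a1, a B cell gene, differed by −0.63 in place of 0.94. Leaving out sedentary replicate 2 and trained replicate 3, which had the most blood marker counts in their groups, gave 0 genes past the threshold.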

How the results depend on the processing

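The count of 0 genes between trained and sedentary TG females was also found with DESeq2, size factors by median of ratios, a mean of at least 50 counts and the library number as a covariate. Keeping every gene, and joining columns over transcripts with at least 50 counts, left the same genes and the same 64 pairs and so could not change it. With columns by name it was 0 too, in an order where 9 of the 14 columns contradicted the labelled sex. It was 3 with limma voom and sample quality weights and 1 in the fit of these groups alone. Fits without single libraries gave 0 to 0, and for lncRNAs 0 to 0. For the difference between sexes the count was 223 with DESeq2, 927 with voom, 10 with an edgeR setting added after seeing the data (no estimateDisp), and 0 to 904 without single TG female libraries. For the difference between genotypes it was 0 to 0. The replicate block gave 0 for training in TG females. The correlations of same-numbered libraries were −0.13 to 0.14, with 0 of 6 trained libraries closest to its own number. Whether the numbers pair mice cannot be decided from 6 correlations. With the block, nTG females had 3 genes in place of 25, and they had 131 with DESeq2, 100 with voom, 13 with median-of-ratios factors, 11 at a mean of at least 50 counts, 0 in the fit of the groups alone and 42 with columns by name. Between genotypes the count in sedentary females was 1269 with voom, 367 in the fit of the groups alone and 561 to 840 without single libraries, and in trained females 1922 to 2640. With columns by name it was 0 in both, and 0 for training in TG males. The cause of these changes was not tested.

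With columns by name, directions turned for 13 of the 20 lead genes: Anxa5 0.0415, G0s2 −0.32, Gadd45b 0.30, Hdgfl3 0.0038, Ier5 −0.23, Meox2 −0.0726, Mov10l1 −0.13, Ndnf −0.0261, Plpp1 0.0286, Ppp1r3b −0.21, Prom2 −0.55, Wee1 −0.0301 and Ykt6 −0.0496. Under the other alternatives none of the 20 turned. The Tnnt2 difference, trained minus sedentary, was 10.4 CPM on plain totals in place of −109 CPM. Of 725 medians of lists under an alternative, 8 moved by more than the spread between libraries, all with columns by name.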
